A study of Mus musculus with 3 samples.

Results

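Transcripts of 41 genes of DNA replication and origin licensing were followed in B16 mouse melanoma cells given 1 µg/ml of doxorubicin, on arrays taken at 0, 2 and 4 h. The drug, an anthracycline used in chemotherapy, binds DNA and traps topoisomerase II on broken strands. The genes were taken by name, as every probe set annotated to the listed genes, and the rule used no measured value. The list itself was chosen with earlier results of these data known. They had 91 probe sets among the 45101 of the array, and each of the 41 genes had at least 1 probe set above the signal filter, as did 9723 genes in all. Of the 91 probe sets, 75 passed and 16 did not. All 3 groups were B16 cultures grown in DMEM with antibiotics and serum: 1 array at 0 h, 1 at 2 h and 1 at 4 h of drug. No untreated culture was followed to 2 or 4 h, so drug and time in culture cannot be told apart. The arrays are also bulk measurements, in which fewer cells in S phase and less RNA per cell cannot be told apart.

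In each cell cycle, replication origins are licensed in late mitosis and G1, when the origin recognition complex, Cdc6 and Cdt1 load the Mcm2-7 helicase onto DNA. In S phase the loaded helicase is activated, and polymerases, the sliding clamp and its loader copy the DNA from nucleotides made by ribonucleotide reductase and thymidylate enzymes. Many of these genes are known targets of E2F transcription factors. Cdt1 is kept from acting again in S phase by the inhibitor geminin and by destruction of the protein.

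Because 1 array stood for each time point, no test or p-value could be made, and differences were counted by a fixed size of 2-fold (log2 ratio of 1). Signals were scaled to a 2% trimmed mean of 500 on each array and are in arbitrary units. Signals given in threes are those at 0, 2 and 4 h, and pairs of log2 ratios are those at 2 and 4 h against 0 h. The brightest passing probe set stands for a gene, and the ± sign gives the SD over its passing probe sets where there are several. Probe sets differ in affinity, so the signals of different genes are not compared. Over all genes with several passing probe sets, the SD between probe sets of a gene was 0.40 at 2 h and 0.48 at 4 h, both against 0 h. In the brightest of 4 equal bins of signal it was 0.27 and 0.32. This spread holds no variation between cultures or arrays. Of 8 pigment cell markers, 8, 7 and 7 had a signal of at least 200 at 0, 2 and 4 h, and their summed signal ranged from 161007 to 169278. The sum rests on Tyrp1, Dct, Pmel and Mlana, as Tyrp1, a melanosomal enzyme, was at 42568, 44083 and 47128. Tyr, tyrosinase, was dim at 221, 169.7 and 142, and Sox10 (11710, 2640 and 892), Mitf (6576, 2031 and 739) and Mc1r (3976, 2200 and 1196) were lower at 2 and 4 h. The part of these differences in the results was not tested. Summed over 8 macrophage markers the signal ranged from 3555 to 5059, and these are reported because a description label names BMDM, the usual abbreviation of a bone marrow macrophage. That sum rests largely on Cd68, at 1884, 3044 and 3699, and no other macrophage marker was above 522 on any array. Of the 8 macrophage markers, 4, 3 and 4 had a signal of at least 200 at 0, 2 and 4 h. The ratio of 3′ to 5′ signal for β-actin, a measure of RNA integrity, was 1.07, 1.10 and 1.18 at 0, 2 and 4 h, and that for Gapdh 0.826, 0.824 and 0.803. The arrays ran on fluidics modules 3, 4 and 1, and module and time cannot be told apart.

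Cdt1, Slbp and Cdc6 had the lowest ratios of the 41 genes at 4 h. They were the 3 members at least 2-fold lower at 4 h than at 0 h, no member was at least 2-fold higher at either time, and none was 2-fold lower at 2 h. Of all 9723 genes, 14.4% passed that size downward at 4 h and 2.32% upward, and the shares at 2 h were 5.69% and 1.41%. The members' share of 7.32% downward at 4 h was thus below that of all genes. In the brightest of the 4 bins of signal, 2 of the 27 members there (7.41%) were 2-fold lower at 4 h, against 3.7% of all genes. With 3 and 2 members past 2-fold, these shares do not rank the members against all genes. The shares of all genes depended on scaling: downward and upward at 4 h they were 8.98% and 7.45% with equal medians, 10.2% and 4.43% with quantile normalization, and 22.7% and 0.668% with spike-in scaling. Upstream sequence is shown for these 3 genes and for Rpa3, the member with the highest ratio at 4 h, to set side by side the promoters of the members at the ends of the range. Each line holds the 250 bases before the annotated start, from RefSeq on GRCm38.p6, with E2F-type motifs and CCAAT boxes on either strand in capitals.
Cdt1 (chr8:122567765-122568014, plus strand): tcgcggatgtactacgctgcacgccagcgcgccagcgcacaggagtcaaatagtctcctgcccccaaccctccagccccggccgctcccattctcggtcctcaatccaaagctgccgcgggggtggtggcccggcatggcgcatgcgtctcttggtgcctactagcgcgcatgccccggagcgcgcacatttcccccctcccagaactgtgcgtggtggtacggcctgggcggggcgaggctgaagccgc
Slbp (chr5:33652575-33652824, minus strand): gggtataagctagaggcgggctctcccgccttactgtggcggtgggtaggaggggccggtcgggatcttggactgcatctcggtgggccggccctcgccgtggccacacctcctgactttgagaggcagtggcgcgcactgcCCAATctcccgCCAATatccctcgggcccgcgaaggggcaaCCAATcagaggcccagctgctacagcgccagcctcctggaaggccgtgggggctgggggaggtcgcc
Cdc6 (chr11:98907901-98908150, plus strand): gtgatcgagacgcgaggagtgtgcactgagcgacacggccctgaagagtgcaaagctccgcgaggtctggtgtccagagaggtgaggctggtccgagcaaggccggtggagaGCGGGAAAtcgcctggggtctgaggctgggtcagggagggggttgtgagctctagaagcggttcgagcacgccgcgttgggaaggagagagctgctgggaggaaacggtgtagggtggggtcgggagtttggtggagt
Rpa3 (chr6:8259142-8259391, minus strand): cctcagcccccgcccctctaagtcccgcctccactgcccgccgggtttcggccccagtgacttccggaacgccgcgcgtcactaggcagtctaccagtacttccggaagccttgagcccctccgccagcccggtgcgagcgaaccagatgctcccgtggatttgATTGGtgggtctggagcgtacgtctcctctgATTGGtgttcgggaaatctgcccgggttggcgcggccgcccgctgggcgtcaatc
The Cdt1 stretch held neither motif, and its E2F-type motif lay after the start. The Slbp stretch held 3 CCAAT boxes and no E2F-type motif, the Cdc6 stretch 1 E2F-type motif, and the Rpa3 stretch 2 CCAAT boxes read on the opposite strand.

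The E2F-type motifs searched were TTTCCCGC, TTTCGCGC, TTTGCCGC and TTTGGCGC on both strands, in windows from 250 bases before to 50 after the start. A match is a run of letters and not a measured binding site, and matches on opposite strands can overlap, as in Mcm5. Of the 33 members with a window, 12 (36.4%) held at least 1 match, against 2.60% of 27025 genes with a window and 4.94% of the 7937 of them that passed the signal filter. The 43 other replication genes with a window had a like share, 16 (37.2%). By motif, 7 members held TTTCGCGC, 5 TTTCCCGC, 5 TTTGGCGC and none TTTGCCGC. CCAAT was found in 22 members (66.7%), against 46.5% of the other replication genes and 41.1% of all genes with a window. Ccne2, Gins1, Gins2, Gmnn, Mcm4, Pole, Prim2 and Rfc2 had no window. Median GC content was 60.2% over the members and 61.2% over the filtered genes. The matches were densest among licensing genes, where 7 of 10 had one. They are printed below for those genes, 1 site each, in the direction of the gene, with the match in capitals.
Cdt1 (chr8:122568038-122568063, plus strand): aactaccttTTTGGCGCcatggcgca
Cdc6 (chr11:98908004-98908029, plus strand): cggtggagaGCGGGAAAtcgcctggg
Orc1 (chr4:108579418-108579443, plus strand): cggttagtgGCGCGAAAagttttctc
Mcm3 (chr1:20820277-20820302, minus strand): acttccgtgGCGGGAAAacttgggaa
Mcm5 (chr8:75109347-75109372, plus strand): gccaagaacTTTCGCGCcaaaacgtc
Mcm6 (chr1:128359736-128359761, minus strand): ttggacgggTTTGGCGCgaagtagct
Mcm7 (chr5:138171851-138171876, minus strand): gtgacgacgTTTCGCGCcaatttcgg
These promoters belong to genes with unlike ratios at 4 h, from -3.08 for Cdt1 to 0.33 for Mcm6. Over the 12 members with a match the log2 ratio at 4 h ranged from -3.08 to 0.46 with a median of 0.07, and over the 21 without one from -2.41 to 0.68 with a median of 0.04. The groups overlapped over nearly their whole range.

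Among the loading factors, Cdt1, which brings the helicase to origins, had the largest difference of all members. From 8819.8 before the drug it stood at 5037 after 2 h and at 1045 after 4 h. That is 1.75-fold lower at 2 h and 8.44-fold lower at 4 h (log2 ratio -0.81 ± 0.17 at 2 h, -3.08 ± 0.21 at 4 h, 2 probe sets). The second probe set gave -1.05 and -3.38, so it was past 2-fold at 2 h where the brighter one was not. Most of the difference arose after 2 h: the signal was 57.1% of its 0 h value at 2 h and 11.8% at 4 h, and 73.7% of the log2 difference lay between 2 and 4 h. Of all genes, 0.514% had a lower ratio at 4 h, and 0.195% had a lower ratio for 4 h against 2 h.

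Cdc6, an ATPase that acts with Cdt1 in loading, had signals of 1209, 782 and 484. It was 1.55-fold lower at 2 h and 2.5-fold lower at 4 h (log2 ratios -0.63 and -1.32, 1 probe set). Its log2 difference was split about evenly between the intervals, with 52.4% after 2 h. Gmnn, which encodes geminin, the inhibitor of Cdt1, was at 2567, 2579.8 and 1928, with ratios of 0.01 and -0.41 (1 probe set). Cdt1 and its inhibitor therefore had unequal ratios on the same arrays.

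The origin recognition complex marks origins before the loading step. Orc2 read 2305, 2258 and 1650.1, a log2 ratio of -0.03 ± 0.10 at 2 h and -0.48 ± 0.18 at 4 h (3 probe sets). Its dimmer probe sets gave -0.15 and -0.20 at 4 h. Orc6 was nearly level, at 2784, 2722 and 2908. Orc1, the large ATPase subunit, was dim and its 2 probe sets did not match. The one that stands for it had signals of 323, 475 and 312, while the other had 399, 255 and 205. Their log2 ratios were 0.55 and -0.64 at 2 h, on opposite sides of 0, and -0.05 and -0.96 at 4 h. The 4 h ratio of Orc1 became 0.25 with equal medians and 0.28 with quantile normalization. No direction is therefore given for Orc1.

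The Mcm2-7 helicase genes, whose products form the ring that unwinds DNA, were within 2-fold of 0 h at both times. Mcm7 was at 11132, 12199 and 11928, Mcm3 at 6645, 6839.5 and 7180.2, and Mcm5 at 7923, 9496 and 8761. Their log2 ratios at 4 h were 0.10 ± 0.25 (SD over 4 probe sets), 0.11 ± 0.25 (5 probe sets) and 0.14 ± 0.21 (3 probe sets), each smaller than its own spread. Mcm4 had the highest ratio of the licensing genes. It read 3402, 3877 and 5179, a log2 ratio of 0.19 ± 0.07 at 2 h and 0.61 ± 0.06 at 4 h (2 probe sets). Mcm6 followed at 4359.5, 5244 and 5482, with 0.33 ± 0.23 at 4 h. In the main scaling Mcm2 was the one subunit below 0 at 4 h, at 9674, 8843 and 7828 with a ratio of -0.31 ± 0.49, but its other probe set gave 0.39. Mcm3, Mcm5 and Mcm7 were also below 0 at 4 h with quantile normalization and with spike-in scaling. Over the 6 subunits the median ratio was 0.16 at 2 h and 0.13 at 4 h, with a range at 4 h from -0.31 to 0.61. Each subunit's ratio at 4 h was thus above those of Cdt1 and Cdc6, which load the helicase.

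**Figure D1:**
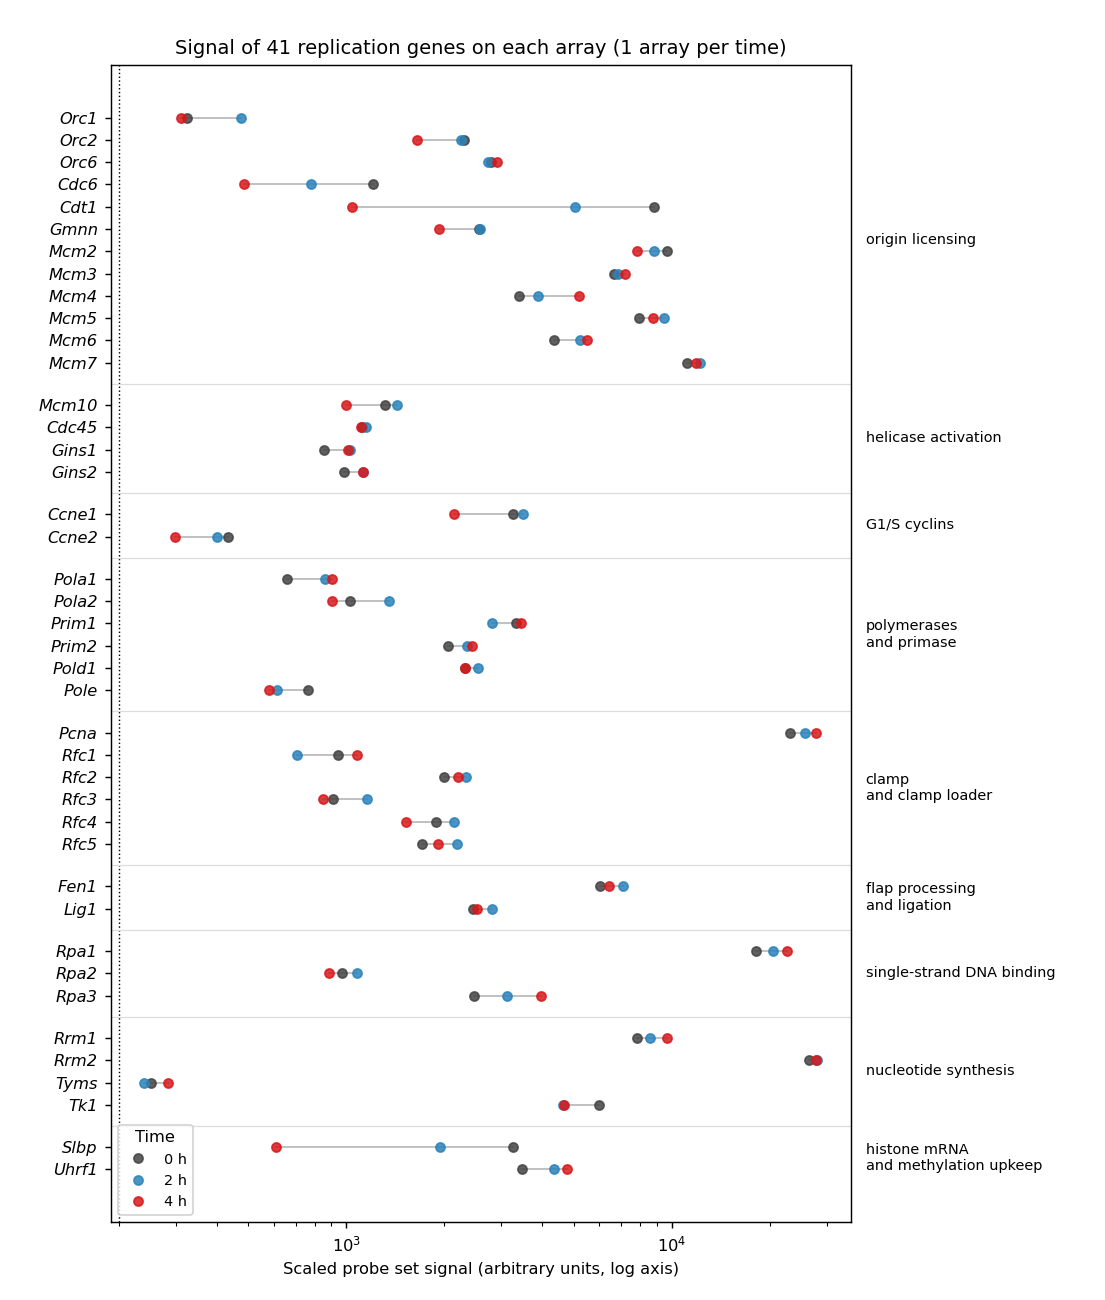
Scaled signal of each of the 41 genes on a log axis, grouped by role, with 1 point per array at 0 h (grey), 2 h (blue) and 4 h (red) and a line over the range. The dotted line is the filter of 200, and the widest ranges are those of Cdt1 (8819.8 to 1045), Slbp (3246 to 610.5) and Cdc6 (1209 to 484).

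Genes that turn the loaded helicase into a working one were close to their 0 h level. Cdc45, a part of the active helicase, had signals of 1117, 1151 and 1112. The GINS subunit genes Gins1 and Gins2 had signals of 855, 1025 and 1014 and of 982, 1126 and 1125, with log2 ratios at 4 h of 0.25 and 0.20 ± 0.26. Mcm10, which acts at helicase activation, was the lowest of the 4, at 1317, 1428 and 1002 (log2 ratios 0.12 and -0.39). By the brightest probe set and in the main scaling, none of the 4 was below its 0 h signal at 2 h. The second passing probe set of Gins2 was lower at 2 h (814 at 0 h and 686 at 2 h, log2 ratio -0.25). With spike-in scaling the 2 h ratio was -0.06 for Mcm10 and -0.13 for Cdc45.

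The E cyclins partner Cdk2 at the entry into S phase, and both genes were lower at 4 h but not past 2-fold. Ccne1 had signals of 3251, 3502 and 2146 (log2 ratio 0.11 ± 0.19 at 2 h, -0.60 ± 0.15 at 4 h, 2 probe sets). Ccne2 had 433, 399.7 and 297, with ratios of -0.12 and -0.55 (1 probe set). After Cdt1, Slbp and Cdc6 these were the lowest ratios of the list at 4 h, so they lay nearest outside the 2-fold limit. For Ccne1 the difference arose after 2 h, with a ratio of -0.71 ± 0.04 for 4 h against 2 h.

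Polymerase and primase genes spread around 0. Pola1, the catalytic subunit of polymerase α, had signals of 656, 861 and 902, the highest ratio of its group at 4 h (0.46). Pola2, its accessory subunit, was at 1028, 1349.5 and 906, with ratios of 0.39 and -0.18. Pole, the catalytic subunit of polymerase ε, was lowest, at 763, 613 and 577 (log2 ratios -0.32 and -0.40). Pold1, the catalytic subunit of polymerase δ, was level at 2317, 2537 and 2325. The primase genes Prim1 and Prim2, which make the RNA primers, had signals of 3335, 2799.7 and 3434 and of 2054, 2350.3 and 2434. Their probe sets disagreed, at 0.04 and 0.74 for Prim1 and at 0.24 and -0.24 for Prim2 at 4 h.

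Pcna, the sliding clamp that tethers polymerases to DNA, had signals of 23192, 25785 and 27845 and log2 ratios of 0.15 and 0.26 (1 probe set). Among the genes of the clamp loader, Rfc1, the large subunit, ran unlike the rest. It had its lowest signal at 2 h, with signals of 944, 706 and 1081 (log2 ratio -0.42 ± 0.19 at 2 h, 0.20 ± 0.15 at 4 h, 3 probe sets). All 3 of its probe sets were below 0 at 2 h, and its ratio for 4 h against 2 h, 0.62 ± 0.05, was the highest of the 41 members. The small subunits Rfc3 (911, 1161 and 850.4) and Rfc4 (1886, 2145 and 1526) had their highest signals at 2 h. So did Rfc5 (1710.5, 2185 and 1921) and the brightest probe set of Rfc2 (1992, 2332 and 2212), while the other 2 passing probe sets of Rfc2 were highest at 4 h (297, 293 and 326, and 309, 467 and 529). Ratios of the small subunits at 4 h ran from -0.31 ± 0.29 for Rfc4 to 0.17 for Rfc5.

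Fen1, the nuclease that trims Okazaki fragments, and Lig1, the ligase that joins them, were nearly level. Fen1 had signals of 6045, 7071 and 6415, and Lig1 2447, 2801 and 2521. The genes of replication protein A, which coats single-stranded DNA, differed among themselves. Rpa3, the smallest subunit, had the highest ratio of all 41 members at 4 h, with signals of 2465, 3131 and 3956 (log2 ratios 0.35 and 0.68, 1 probe set). Rpa1, the large subunit, was very bright at 18114, 20531 and 22649, with a ratio of 0.32 ± 0.17 at 4 h. Rpa2 had 971, 1082 and 888, with -0.13 ± 0.24.

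Nucleotide synthesis genes held near their 0 h level. Rrm2, the regulatory subunit of ribonucleotide reductase, was at 26524, 28023 and 27844 (log2 ratio 0.08 ± 0.04 at 2 h, 0.07 ± 0.07 at 4 h, 3 probe sets). Rrm1, the catalytic subunit, was at 7832, 8600.2 and 9684, with a ratio of 0.31 ± 0.24 at 4 h. Tk1, the salvage thymidine kinase, was the lowest of the group, at 5998, 4649 and 4659.5. Its ratios of -0.37 and -0.36 show the difference already in place at 2 h. Tyms, thymidylate synthase, had 1 passing probe set of 4, a dim one at 251, 239 and 283. A further probe set carries the symbols of both Tyms and its pseudogene and was not used.

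Slbp, the protein that binds the stem-loop of histone mRNA, and Uhrf1, a factor in upkeep of DNA methylation, went apart. The Slbp signal was 3246, 1938 and 610.5, which is 1.67-fold lower at 2 h and 5.32-fold lower at 4 h (log2 ratios -0.74 and -2.41, 1 passing probe set). At 2 h it was 59.7% of the 0 h signal and at 4 h 18.8%, with 69.1% of the log2 difference after 2 h. Uhrf1 had signals of 3463, 4346 and 4773 (log2 ratio 0.33 ± 0.01 at 2 h, 0.46 ± 0.20 at 4 h, 2 probe sets). Slbp thus ran closer to Cdt1 than to the other members, both with the larger step after 2 h.

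**Figure D2:**
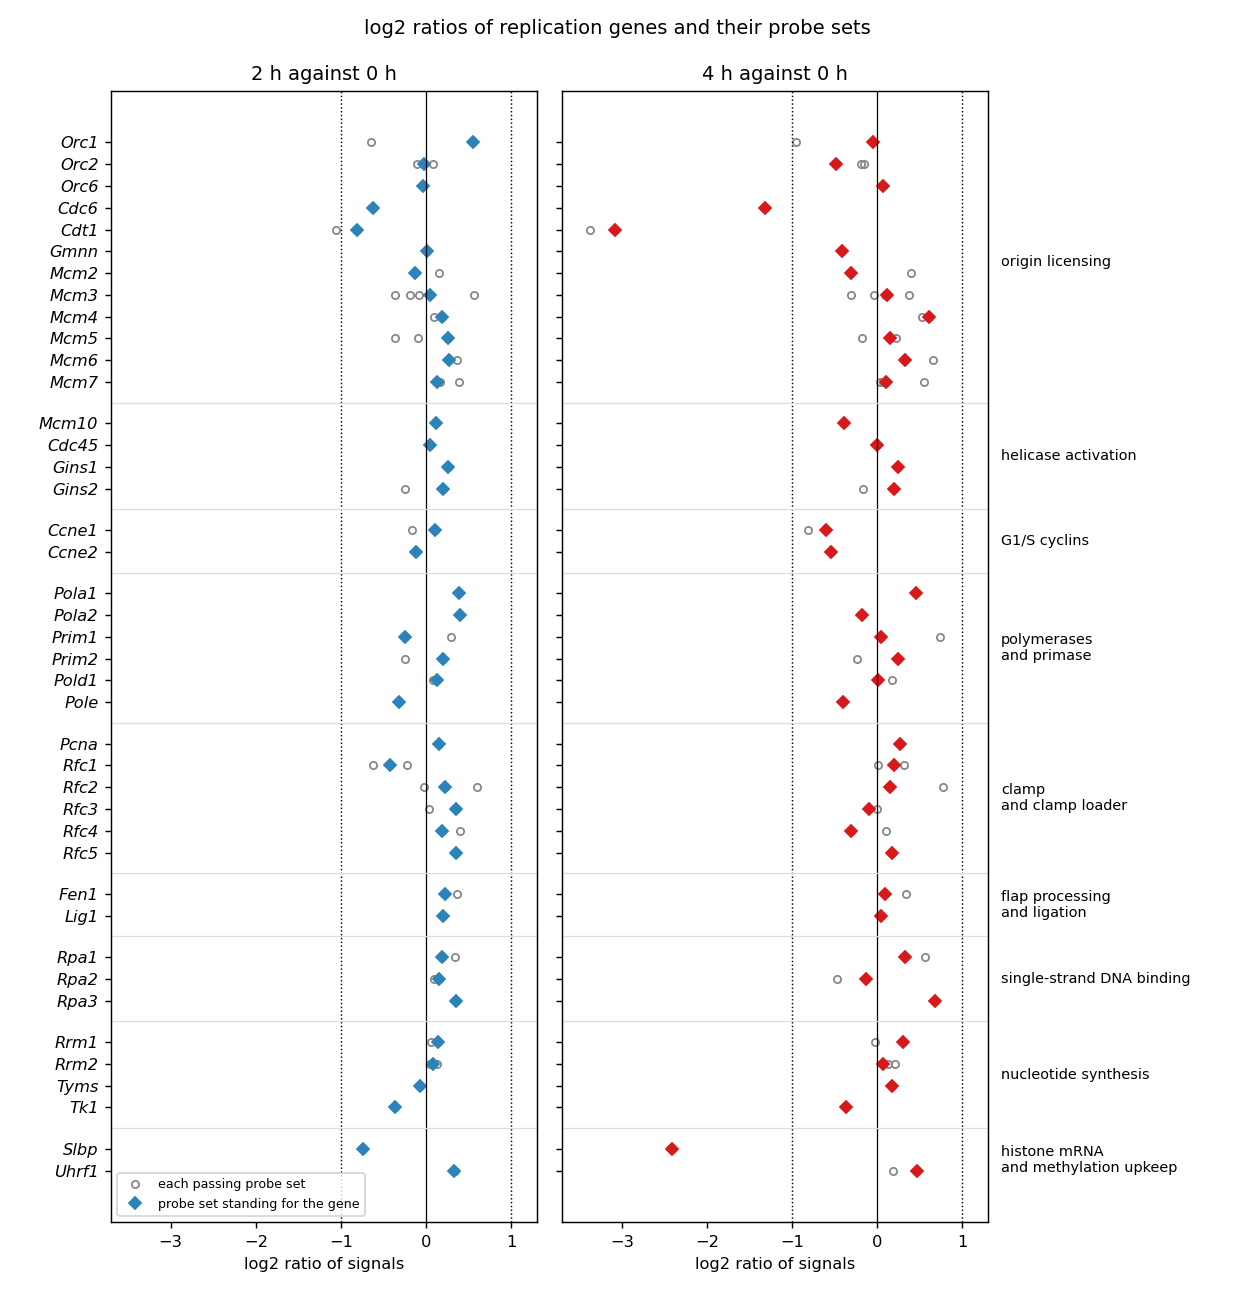
log2 ratios of the 41 genes at 2 h (left, blue diamonds) and 4 h (right, red diamonds) against 0 h, with every passing probe set as an open circle and dotted lines at 2-fold. At 4 h, 4 of the 75 passing probe sets lie beyond 2-fold lower and none beyond 2-fold higher.

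Compared by role, the 4 h log2 ratios had medians of 0.00 for the 12 licensing genes, 0.02 for the 6 polymerase and primase genes, 0.16 for the 6 clamp and clamp loader genes and 0.12 for the 4 nucleotide synthesis genes. Medians of the smaller roles were -0.57 for the 2 E cyclin genes, 0.09 for the 4 helicase activation genes, 0.06 for Fen1 and Lig1, 0.32 for the 3 genes of replication protein A and -0.97 for Slbp and Uhrf1. The lowest ratio was -3.08 among licensing genes, -0.40 among polymerases, -0.31 among clamp and loader genes and -0.36 among nucleotide synthesis genes. Both of the licensing genes past 2-fold encode loading factors. The difference between roles was not tested, since members are not replicates.

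Over all 41 genes the median log2 ratio was 0.14 at 2 h, 0.06 at 4 h and -0.08 for 4 h against 2 h, beside -0.01, -0.07 and -0.06 over all genes. At 2 h, 29 members were above 0 and 12 below, and at 4 h 24 and 17. Over all genes these counts were 4763 and 4960 at 2 h, and 4483 and 5240 at 4 h. In the brightest of the 4 bins of signal, 20 of 27 members and 1994 of 2730 genes were above 0 at 2 h. At 4 h, 19 members and 1959 genes there were above 0. The number of members above 0 at 4 h ran from 6 with spike-in scaling to 29 with equal medians. Between 2 and 4 h, Cdt1 and Slbp were the members at least 2-fold lower and none was 2-fold higher, where 5.41% and 0.843% of all genes were. Ratios of dim and bright probe sets differ in spread, so the members were also read within bins of signal, and 27 of the 41 lay in the brightest of the 4 bins. In that bin, 3.7% of 2730 genes were at least 2-fold lower at 4 h, against 2 of 27 members (7.41%). With 2 members past 2-fold, the shares in that bin are too close to be read as a result about the members. The median ratio in the bin was 0.26 over all genes and 0.09 over the members. Without Cdt1, Slbp and Cdc6, the other 38 members ranged from -0.60 to 0.68 at 4 h.

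**Figure D3:**
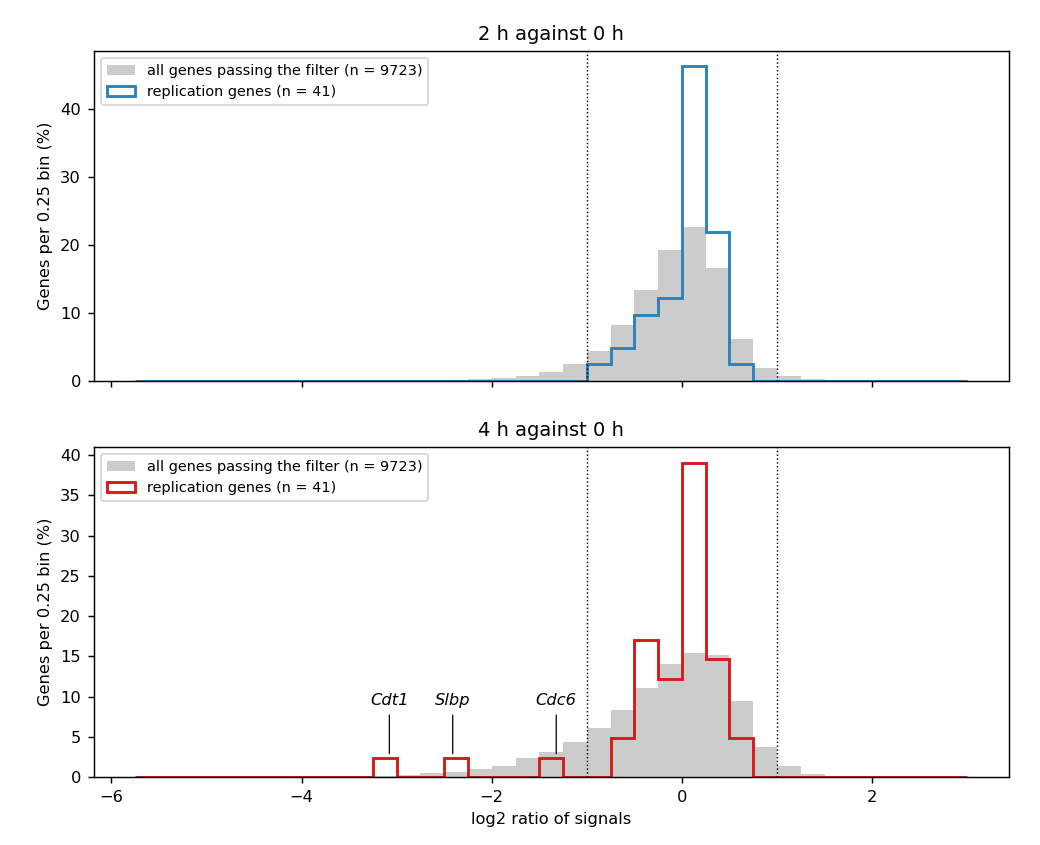
Share of genes in bins of 0.25 of the log2 ratio at 2 h (top) and 4 h (bottom) against 0 h, for all 9723 genes (grey) and the 41 replication genes (outline), with dotted lines at 2-fold. At 4 h, Cdt1, Slbp and Cdc6 lie apart from the other 38 members, which stay between -0.60 and 0.68.

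Whether a small ratio lay above or below 0 depended on how arrays were scaled, and the 3 large ones did not. Under 4 other scalings the 4 h ratio ranged from -3.40 to -2.77 for Cdt1, from -2.73 to -2.11 for Slbp and from -1.64 to -1.02 for Cdc6. At 4 h, 12 members were below 0 in every scaling that measured them, and 5 above 0, namely Mcm6, Pola1, Uhrf1, Mcm4 and Rpa3. The other 24 changed side in at least 1 scaling, among them Pcna, Rrm1, Rrm2 and Rpa1. For Pcna the ratio of 0.26 became -0.15 with quantile normalization and -0.06 with scaling to the hybridization spike-ins. No direction is therefore given for those 24 genes. The same counts were not made over all genes, so 12 and 5 are not read as a result about the members. Some ratios kept their side narrowly, at -0.002 for Mcm2 and Rfc4 with equal medians and 0.008 for Mcm6 with spike-in scaling. A second passing probe set was above 0 at 4 h for Mcm2 (0.39) and for Rfc4 (0.10).

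**Figure D4:**
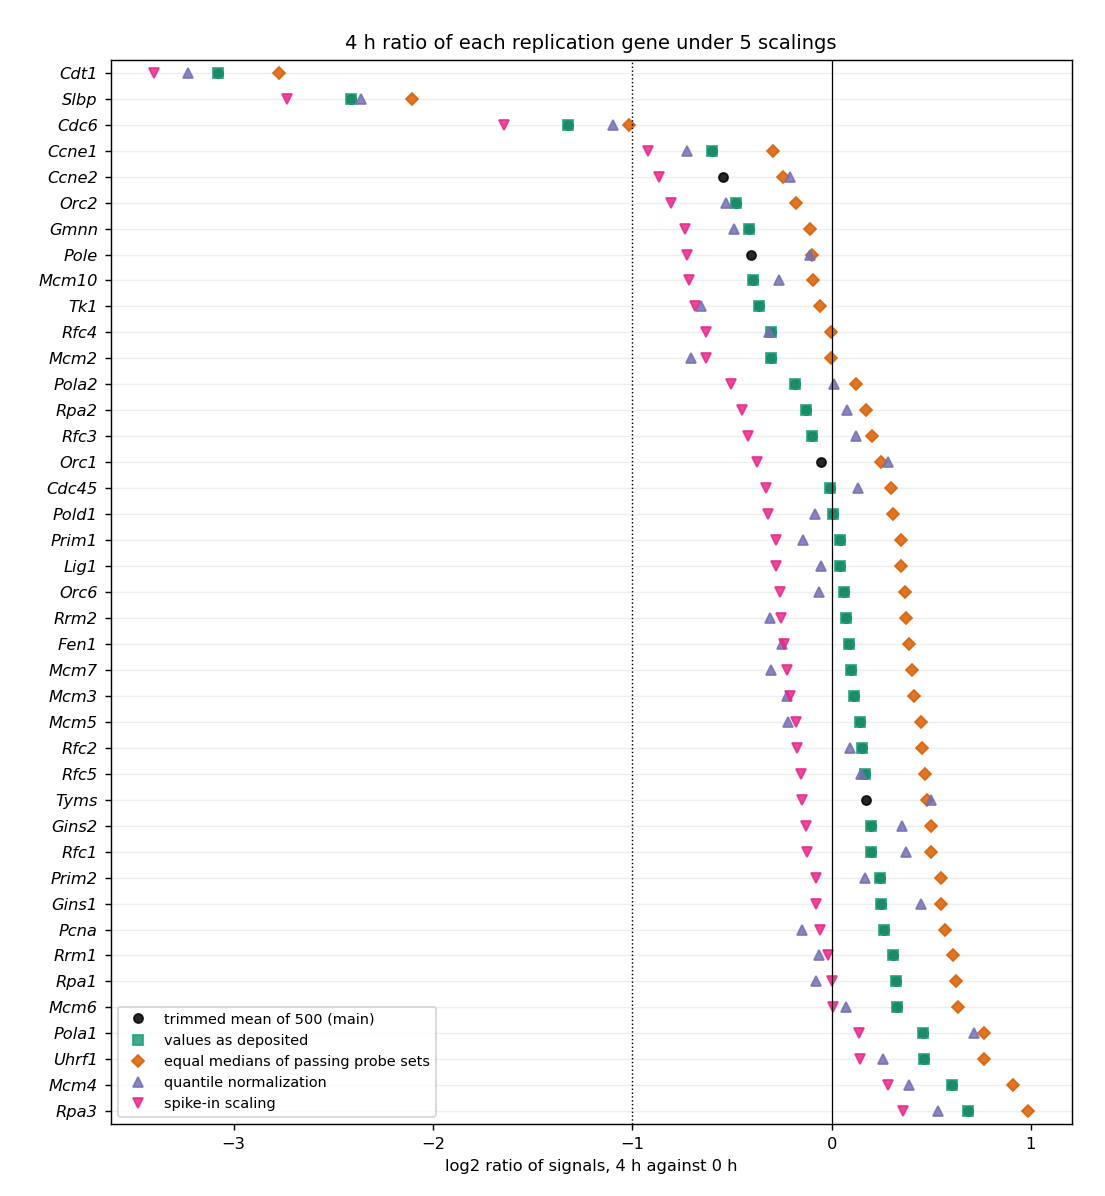
4 h log2 ratio of each gene under the main scaling and 4 others, sorted by the main value, with the deposited values lying on top of the main ones wherever both were measured. Cdt1, Slbp and Cdc6 are left of the 2-fold line at -1 in each scaling, and most other genes cross 0 between scalings.

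A further list of 51 replication genes outside the 41 was read in the same way, and 48 had a passing probe set. Of these, 10 (20.8%) were past 2-fold downward at 4 h and 4 (8.33%) at 2 h, beside 14.4% and 5.69% of all genes, and none was 2-fold higher. The list was chosen with earlier results of these data known, and the shares are not matched for signal. All of the 10 but Ccna2, Cdc25a and Mms22l lay in the 2 dimmer of the 4 bins of signal. In each of those bins 21.2% of all genes were at least 2-fold lower at 4 h. The lowest was Atad5, which unloads the clamp, at 529, 272 and 133 (log2 ratios -0.96 and -1.99). Dna2, a nuclease and helicase, was at 881, 468 and 226, but its 2 passing probe sets gave -1.96 and 0.72 at 4 h. Orc5, a further subunit of the origin recognition complex, was at 551, 190.3 and 157, with most of the difference present by 2 h (log2 ratios -1.53 and -1.81).

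At the other end, Rnaseh2a, a subunit of ribonuclease H2, was at 1088, 1529 and 1619, with a ratio of 0.57 at 4 h. Recql4, a helicase, was at 286, 328 and 424, and Pole4, a small subunit of polymerase ε, at 2238, 3102 and 3288. The other 7 genes past 2-fold lower at 4 h were chosen after their values were seen. They are Pold3, E2f3, Ccna2, Cdc25a, Mms22l, Ticrr and Cdc7. Pold3, a subunit of polymerase δ, was at 1002, 317 and 294, unlike Pold1. For Pold3 the log2 ratio was -1.66 ± 0.76 at 2 h and -1.77 ± 0.15 at 4 h (3 probe sets). At 2 h its probe sets ran from -1.66 to -0.15. Ccna2, the S phase and G2 cyclin, was at 4801, 3722 and 1729.8, with the larger step after 2 h (log2 ratio -0.37 ± 0.08 at 2 h, -1.47 ± 0.29 at 4 h, 2 probe sets). Cdc25a, the phosphatase that activates Cdk2, was at 1625, 838 and 587. E2f3, a transcription factor of the E2F family, was at 755, 266 and 248, with log2 ratios at 4 h of -1.61 and -0.77 from its 2 probe sets. For E2f1, at 1200.4, 1146 and 1156, they were -0.05 and -0.46.

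**Figure D5:**
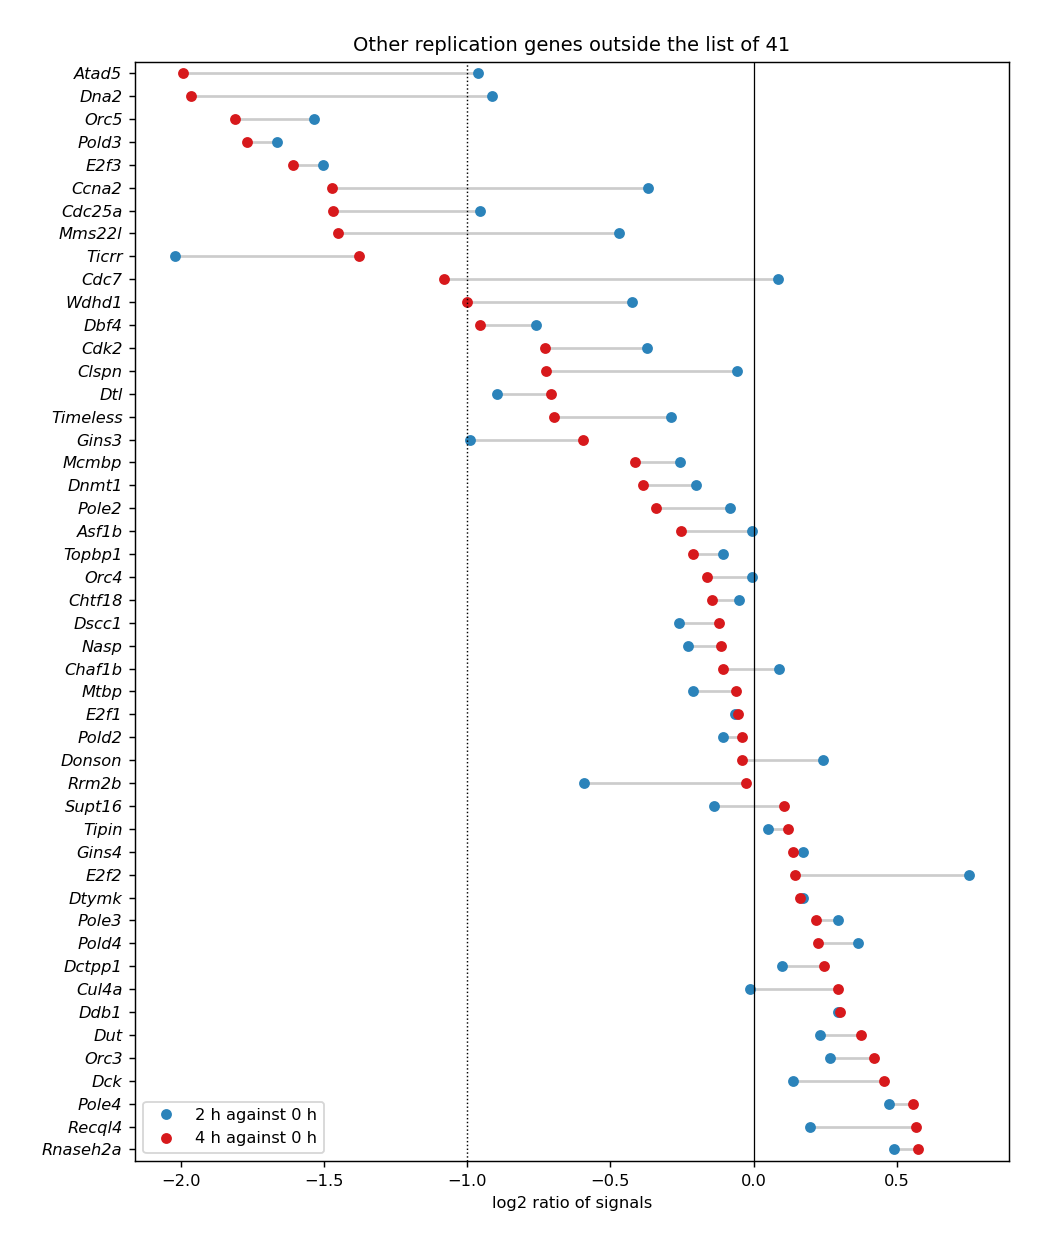
log2 ratios of 48 further replication genes at 2 h (blue) and 4 h (red) against 0 h, sorted by the 4 h value, with the dotted line at 2-fold lower. The 4 h values run from -1.99 for Atad5 to 0.57 for Rnaseh2a.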

How the data were processed

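Total RNA of B16 cells at 0, 2 and 4 h of doxorubicin was hybridised to 1 Mouse430_2 array per time point. The authors deposited linear intensities, 1 per probe set, made with GCOS 1.4 per the submitters' processing notes. Their 2% trimmed mean is 150 on each array. In the sources used here, the way probes were summarised is not given. Arrays were assigned from their titles. The description field names BMDM, and at 2 and 4 h the description and source fields name an unexplained "ET" treatment.

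Scaling brought the 2% trimmed mean of every array to 500. A floor of 100 came next, then log2. A probe set passed with a mean log2 signal of at least that of 200. Of 45101 probe sets, 34958 carry 1 gene symbol and 932 several, and 9211 are unnamed here. Symbols were updated by Entrez ID to RefSeq (GRCm38.p6) for 34754. A gene took its brightest passing probe set. Promoter windows are from RefSeq. The number of arrays limits the precision.

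The members, roles and lists were chosen with earlier results of these data known. Named are the members past 2-fold, the highest and lowest of each role, members whose probe sets disagree, and the 3 highest and lowest of the other genes. Further members are given to account for all of them. Alternatives were 4 scalings, floors of 50 and 200, an offset of 50, filters at 400 and at nothing, averaging the probe sets of a gene, and leaving out _x_at, _s_at and _a_at probe sets. Steps were tested on simulated data. Software was matplotlib 3.10.9, scipy 1.17.1, pandas 2.3.3 and numpy 2.4.6 under Python 3.11.15.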

Additional observations from a re-analysis of the deposited data

How the results depend on the processing

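The 3 members at least 2-fold lower at 4 h were Cdt1, Slbp and Cdc6 under 10 of the 11 alternatives. Without suffixed probe sets 2 were counted, since Cdc6 has no other probe set, and 36 members were measured. At 2 h, 1 member (Cdt1) was at least 2-fold lower with quantile normalization and 1 without suffixed probe sets. Medians moved with scaling, against a yardstick of the SD between probe sets over the square root of the number of genes. With equal medians they were 0.29 at 2 h, 0.37 at 4 h and 0.074 for 4 h against 2 h over the members, and at 4 h 0.31 for licensing, 0.33 for polymerases, 0.46 for clamp and loader and 0.43 for nucleotide synthesis genes. With spike-in scaling they were -0.037, -0.26 and -0.23, and -0.32, -0.30, -0.16 and -0.20. With quantile normalization they were 0.056 at 2 h and -0.076 at 4 h, and -0.26 for licensing and -0.19 for nucleotide synthesis genes. The median for 4 h against 2 h was -0.016 with the mean over probe sets. Without suffixed probe sets the 2 h median was 0.042 and the 4 h licensing median -0.24. These scalings moved the median of all genes at 4 h from -0.07 to 0.24, -0.39 and 0.05. Relative to all genes the members stood at 0.13 in the main scaling and at -0.13 with quantile normalization. Equal medians and spike-ins also gave 0.13. Each of these multiplies a whole array by 1 factor and shifts all ratios alike, so this value could hardly change under them. With the deposited values the members stood at -0.042. There the member ratios were the same, but only 5153 genes and 37 members passed the filter. In the brightest bin of the main scaling the median was 0.26 over all genes and 0.09 over the members. With quantile normalization 10.2% of all genes were at least 2-fold lower at 4 h, with spike-ins 22.7% and with equal medians 8.98%. Of 878 single member ratios, 828 stayed within the SD between probe sets of like signal and none past 2-fold changed sign. Many of the 878 could not move. The deposited values, the floors and the filters leave the ratio of a measured member as it was, since its signals lie above each floor. Those settings therefore say little in this count or in the 10 of 11 alternatives above. A floor of 200 equals the filter, so every gene passed it. No paired analysis was possible because each time point has 1 array, and no array could be left out for the same reason.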
